A study of Mus musculus with 18 samples.

Results

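The 9 genes described here encode transcription factors that are used to place a piece of gut along the axis from stomach to colon: *Gata4*, *Gata5*, *Gata6*, *Pdx1*, *Onecut2*, *Cdx1*, *Cdx2*, *Hnf4a* and *Hnf4g*. They were chosen by name, and all 9 were found among the 55487 genes of the count files. Their levels were compared between genotypes as a check that the same site of the intestine had been sampled in each. RNA had been sequenced from whole-thickness ileum of 18 C57BL6/J mice fed chow, with 1 library per mouse and 6 mice per genotype. All mice came from a strain carrying CAG-*Ppara*,-*EGFP*, a transgene inserted into the *Col1a1* locus as a safe harbor. Controls lacked *Villin-CreERT2*, whereas the mice called IEC-*Ppara* carried it together with 1 copy (heterozygotes) or 2 copies (homozygotes) of the transgene, so that tamoxifen turned on *Ppara* in the intestinal epithelium. Every mouse, controls included, was injected with tamoxifen at 100 mg/kg daily for 3 days and was collected 2 weeks later, at 8 to 13 weeks of age. There were 3 females and 3 males among controls, and 2 females and 4 males among heterozygotes as well as among homozygotes. Per the study's methods, the small intestine had been divided by length into equal parts, the last part was called ileum, and RNA was taken from the piece numbered 4 of the 4 it was cut into.

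The gut tube is patterned by transcription factors whose territories overlap. PDX1 marks the region around pylorus, duodenum and pancreas, ONECUT2 is a factor of the proximal small intestine, and GATA4 is present in duodenum and jejunum and is lost toward the ileum, where GATA6 remains. CDX1 and CDX2 are homeobox factors that specify intestine as opposed to stomach and continue into the colon, and HNF4A and HNF4G are nuclear receptors that maintain enterocyte genes along the whole intestine.

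The gene counts of a library added up to 38528522 at the least and 50376371 at the most, with medians of 43515240 for controls, 45568645 for heterozygotes and 44387080 for homozygotes. *Ppara* was at 25.8 to 47.4 CPM (counts scaled to a total of 1e6 per library) in controls, 107 to 196 CPM in heterozygotes and 184 to 279 CPM in homozygous libraries, so that every IEC-*Ppara* library lay above every control. The labelled tissue was borne out by ileal genes, as *Fabp6*, the ileal bile acid binding protein, had 1914 CPM as its lowest level in the 18 libraries. The full wall was taken, and the libraries also differed in the levels of muscle and lymphoid genes. The summed level of 10 smooth muscle genes ran from 505 to 5755 CPM in control mice, from 637 to 4202 CPM in heterozygotes and from 3905 to 9099 CPM in homozygotes. The 9 B cell genes summed to 549 CPM in control 2, 435 CPM in control 3, 310 CPM in heterozygous 2 and 90.4 CPM in homozygous 1. In bulk tissue, fewer cells of a type and less RNA per cell cannot be told apart.

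The promoter sequences of members were searched for short motifs of the 3 families, on both strands. RefSeq promoters (GRCm38.p6, 250 bases before to 50 after a gene start) were at hand for 4 of the 9 genes, *Gata5*, *Pdx1*, *Cdx2* and *Hnf4a*, which has 2, giving 5 sequences. The GATA letters AGATAA or TGATAA occurred in 1 of them, against 18.6% of all 32851 promoters. This was a promoter of *Hnf4a*, and the match began at position -52 relative to the RefSeq gene start. The window of 30 bases around it, on the + strand at chr2:163506793-163506822 and with the match in capitals, is shown as the only match found.
Hnf4a: gaagaatcaataAGATAAccgggcggggtg
The HNF4 letters AAAGTCC, present in 4.21% of all promoters, and the CDX letters TTTATG or TTTACG, present in 14.6%, did not occur in these 5 sequences. These are descriptions of letters and not binding sites.

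Genotypes were compared by edgeR's quasi-likelihood test with all 18 libraries in 1 fit, over the 12645 protein-coding genes that exceeded 3 CPM in 4 or more libraries, with Benjamini-Hochberg adjustment over those genes. Of the 9 positional factors, 6 passed this filter: *Gata5*, *Gata6*, *Cdx1*, *Cdx2*, *Hnf4a* and *Hnf4g*. *Gata4*, *Pdx1* and *Onecut2* did not exceed 3 CPM in any library, and their fold changes come from the same test over all 38803 genes with at least 1 count. An adjusted p under 0.05 was reached by 0 of the 6 factors for homozygotes against controls, where 0.411% of the genes tested reached it. The same count was 0 of 6 for heterozygotes against controls, where the share among all genes was 0.293%, and 0 of 6 for homozygotes against heterozygotes, where it was 0.00791%. At an unadjusted p under 0.05 the 3 counts were also 0, against 8.06%, 5.29% and 7.61% of all genes tested in the same order, and shares of this size leave 0 of 6 near the background. DESeq2's Wald test gave 0 of 6 at an adjusted p under 0.05 in each comparison, against 1.08%, 0.633% and 0.0791% of genes. In the fit over all genes, 0 of the 3 low factors passed in any comparison, against 0.16% of genes in homozygotes against controls, 0.121% in heterozygotes against controls and 0% between the IEC-*Ppara* groups. At an unadjusted p under 0.05, 1 of these 3 was counted, *Pdx1* in homozygotes against controls, where 8.09% of all genes were. The shares were 6.04% for heterozygotes against controls and 7.77% between the IEC-*Ppara* groups.

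**Figure D1:**
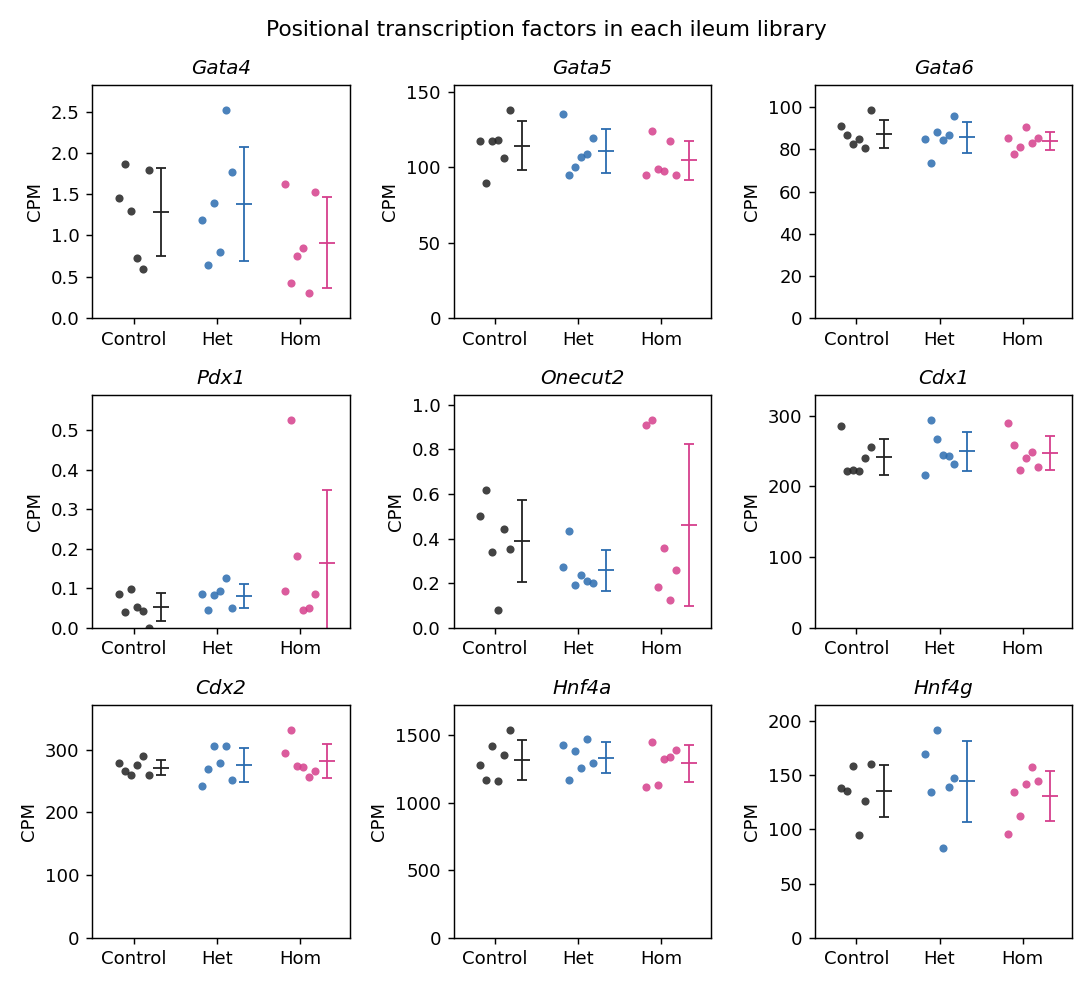
CPM of each positional factor (vertical axis, linear from 0) in the 6 control, 6 heterozygous (Het) and 6 homozygous (Hom) ileum libraries; points are libraries, and the bars are the group mean and SD, cut at 0. For every factor the ranges of the 3 genotypes overlap, and homozygous 2 stands apart for *Pdx1* at 0.527 CPM.

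GATA factors are zinc finger proteins that act from early endoderm onward. *Gata4* (ENSMUSG00000021944; chromosome 14, 63198922 to 63271692, - strand, GRCm38), the factor of the proximal small intestine, was low throughout. In controls it ranged from 0.591 to 1.87 CPM with a median of 1.37, in heterozygotes from 0.640 to 2.52 CPM with a median of 1.29, and in homozygotes from 0.304 to 1.63 CPM with a median of 0.799. These levels rest on 12 to 121 counts per library. The 3 ranges overlapped, with the lowest value in homozygous 5 and the highest in heterozygous 5. The log2 fold change was -0.51 for homozygotes against controls (standard error 0.41, edgeR adjusted p = 0.689 over all genes) and 0.15 for heterozygotes against controls (standard error 0.41, edgeR adjusted p = 1).

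*Gata5* (ENSMUSG00000015627; chromosome 2, 180325133 to 180334699, - strand), expressed in differentiated enterocytes, was at 89.4 to 138 CPM in control mice (median 118), 94.98 to 135 CPM in heterozygotes (median 108) and 94.6 to 124 CPM in homozygotes (median 98.3). The lowest and the highest library were both controls. The log2 fold change for homozygotes against controls was -0.13 (95% interval -0.39 to 0.12, edgeR adjusted p = 0.820), which bounds the ratio between 0.765 and 1.09. *Gata6* (ENSMUSG00000005836; chromosome 18, 11052064 to 11085635, + strand), the GATA factor kept along the whole small intestine, was at 80.5 to 98.8 CPM in control mice (median 86.1), 73.5 to 96.0 CPM in heterozygotes (median 85.9) and 77.8 to 90.9 CPM in homozygotes (median 84.2). Its log2 fold change was -0.06 for homozygous (standard error 0.08, edgeR adjusted p = 0.892) and -0.0023 for heterozygotes against controls (standard error 0.08, edgeR adjusted p = 1.00). For *Gata6* the 95% interval of the homozygous to control ratio ran from 0.859 to 1.07. The sign of these small values depended on the fit: it changed for *Gata6* in homozygotes with the smooth muscle score as a covariate (0.01).

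Antisense genes overlap several of these loci. Per the study's methods ambiguous reads were not counted, and whether the counting used strand is not given in the sources used here. Without strand, a read from a stretch shared by both genes could be given to neither, so that the counts of a gene and its antisense partner are uncertain where they overlap. *Gata5os* had 20 to 114 counts per library and *Gata6os* 165 to 328, against 4071 to 6404 for *Gata5* and 3217 to 4387 for *Gata6*. For *Hnf4a*, the antisense gene *Hnf4aos* had 26 to 105 counts against 44679 to 71641. The case is different for *Pdx1*, whose antisense gene *Plut* had 12 to 52 counts, against 0 to 26 for *Pdx1*.

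*Pdx1* (ENSMUSG00000029644; chromosome 5, 147269959 to 147275848, + strand), which marks duodenum and pancreas, was near the limit of detection. The counts in controls 1 to 6 were 4, 2, 4, 2, 2 and 0, in heterozygous 1 to 6 they were 4, 2, 4, 4, 6 and 2, and in homozygous 1 to 6 they were 4, 26, 8, 2, 2 and 4. The 0 in control 6 has an exact binomial 95% interval that reaches up to 0.093 CPM. In homozygous 2 the 26 counts gave 0.527 CPM (exact binomial 95% interval 0.344 to 0.772), above the upper end of the interval of every other library, whereas the interval itself overlapped that of homozygous 3 (upper end 0.359). All 17 counts of *Pdx1* above 0 were even numbers, and 72.3% of the 43570 counts from 1 to 20 of protein-coding genes were even, so that both reads of a pair may have been counted and these intervals, which treat counts as independent, would then be too narrow. The log2 fold change for homozygotes against controls was 1.60 (standard error 0.71, edgeR adjusted p = 0.540 over all genes, unadjusted p = 0.0338 in the same edgeR test), and it was 0.73 without homozygous 2. For heterozygotes against controls it was 0.64 (standard error 0.72, edgeR adjusted p = 0.934).

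*Onecut2* (ENSMUSG00000045991; chromosome 18, 64340020 to 64400987, + strand), a proximal intestinal factor, was at 0.0779 to 0.615 CPM in control mice (median 0.398), 0.190 to 0.434 CPM in heterozygotes (median 0.222) and 0.127 to 0.932 CPM in homozygotes (median 0.307), on 3 to 46 counts per library. The highest levels were in homozygous 2 (0.932 CPM) and homozygous 1 (0.907 CPM), while the other 4 homozygous libraries lay at or below 0.357 CPM. The log2 fold change was 0.24 for homozygotes against controls (standard error 0.48, edgeR adjusted p = 0.940) and -0.57 for heterozygotes against controls (standard error 0.49, edgeR adjusted p = 0.823). Without homozygous 1 the homozygous value was -0.05, and without homozygous 2 it was -0.10.

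The caudal factors were high in every library. *Cdx1* (ENSMUSG00000024619; chromosome 18, 61018862 to 61036199, - strand) was at 222 to 286 CPM in control mice (median 231), 216 to 294 CPM in heterozygotes (median 244) and 223 to 289 CPM in homozygotes (median 244). *Cdx2* (ENSMUSG00000029646; chromosome 5, 147300805 to 147307270, - strand), the factor on which intestinal identity depends, was at 259 to 290 CPM in control mice (median 271), 242 to 306 CPM in heterozygotes (median 274) and 257 to 332.5 CPM in homozygotes (median 274). The ranges of the genotypes overlapped for both genes, and the highest level of *Cdx2* was in a homozygous library. For homozygotes against controls the log2 fold change of *Cdx1* was 0.04 (standard error 0.09, edgeR adjusted p = 0.954) and that of *Cdx2* was 0.06 (standard error 0.08, edgeR adjusted p = 0.891). The 95% interval of the ratio was 0.898 to 1.17 for *Cdx1* and 0.928 to 1.18 for *Cdx2*. Against control, heterozygous mice differed by 0.07 for *Cdx1* and 0.05 for *Cdx2* on the log2 scale (standard errors 0.09 and 0.08, edgeR adjusted p = 1.00 for both).

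*Hnf4a* (ENSMUSG00000017950; chromosome 2, 163506808 to 163572910, + strand), whose promoter window is printed above, was the most abundant of the 9. It was at 1160 to 1543 CPM in control mice (median 1315), 1169 to 1471 CPM in heterozygotes (median 1341) and 1115 to 1452 CPM in homozygotes (median 1331). Its log2 fold change was -0.03 for homozygotes against controls (standard error 0.11, edgeR adjusted p = 0.971; ratio 0.833 to 1.15 at 95%) and 0.04 for heterozygotes against controls (standard error 0.11, edgeR adjusted p = 1.00). *Hnf4g* (ENSMUSG00000017688; chromosome 3, 3508030 to 3658052, + strand), its paralog, was at 95.2 to 161 CPM in control mice (median 137), 82.7 to 192 CPM in heterozygotes (median 143) and 95.6 to 158 CPM in homozygotes (median 139). The lowest and the highest library, heterozygous 4 and heterozygous 3, had the same genotype. The log2 fold change was -0.05 for homozygotes against controls (standard error 0.18, edgeR adjusted p = 0.971), and its 95% interval of the ratio, 0.739 to 1.26, was the widest of the 6 factors over the filter. For homozygotes against heterozygotes it was -0.16 (standard error 0.18, edgeR adjusted p = 0.822).

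For homozygotes against heterozygotes, the log2 fold change of the other factors over the filter was -0.11 for *Gata5*, -0.06 for *Gata6*, -0.03 for *Cdx1*, 0.01 for *Cdx2* and -0.07 for *Hnf4a*, with edgeR adjusted p-values from 0.816 to 0.983. The low factors had wider errors, with -0.66 (standard error 0.41) for *Gata4*, 0.97 (standard error 0.68) for *Pdx1* and 0.82 (standard error 0.49) for *Onecut2*, and edgeR adjusted p-values from 0.538 to 0.652. Homozygous 2 was the highest of all libraries for *Pdx1* (0.527 CPM) and *Onecut2* (0.932 CPM), and the values of both genes rest partly on it. The log2 fold changes of the 6 factors over the filter lay within 0.2 of 0 in the 3 comparisons. For reference, the median absolute log2 fold change over all genes tested was 0.08, 0.07 and 0.09 for homozygotes against controls, heterozygotes against controls and homozygotes against heterozygotes.

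**Figure D2:**
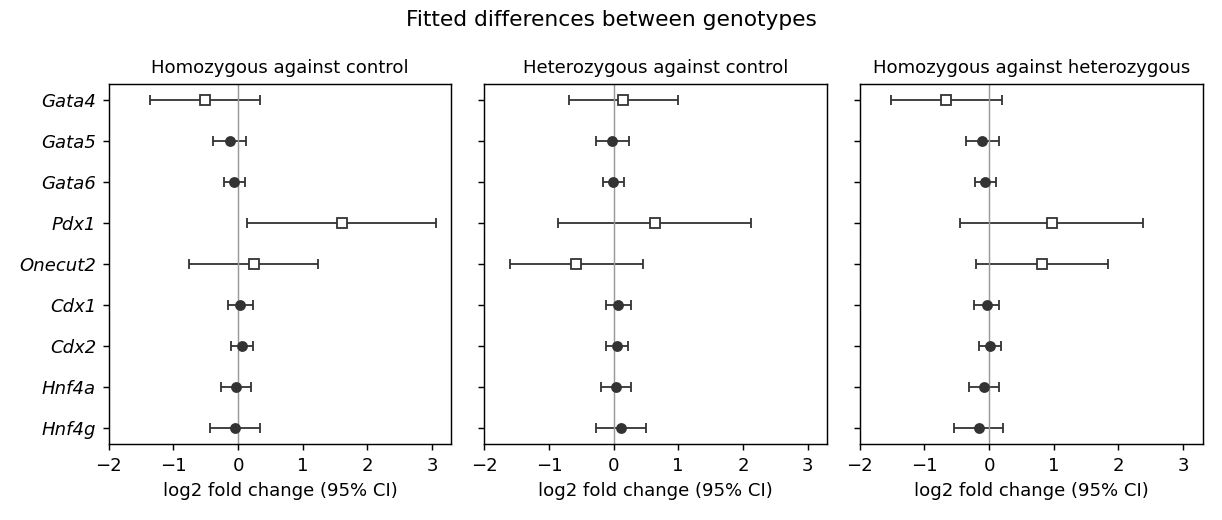
Log2 fold change (horizontal axis) of each factor in the 3 comparisons, with a 95% confidence interval computed from edgeR's fold change and F statistic. Filled circles are the 6 factors over the expression filter and open squares the 3 under it, fitted over all genes. The filled circles lie within 0.2 of 0, and only the interval of *Pdx1* in homozygotes against controls, 0.13 to 3.07, does not include 0.

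Levels can be compared between genes only per length, for which the FPKM values (CPM per kilobase of exon) were used. Over the 18 libraries *Hnf4a* came first with a mean of 273 FPKM ± 26.4 (SD, n = 18), followed by *Cdx1* with 141 ± 14.0, *Cdx2* with 122 ± 9.81, *Hnf4g* with 52.2 ± 10.5, *Gata5* with 33.5 ± 4.35 and *Gata6* with 13.2 ± 0.930 FPKM. A wide gap separated these from *Gata4* with 0.306 ± 0.153, *Pdx1* with 0.0460 ± 0.0528 and *Onecut2* with 0.0227 ± 0.0149 FPKM. The ranges of *Hnf4a* and *Cdx1*, of *Cdx2* and *Hnf4g*, of *Gata5* and *Gata6* and of *Gata6* and *Gata4* did not touch. The ranges of *Cdx1* and *Cdx2* overlapped, although *Cdx1* was the higher in all 18 libraries, and *Hnf4g* exceeded *Gata5* in 17 of 18. *Gata4* exceeded *Pdx1* in 17 of 18 libraries and *Pdx1* exceeded *Onecut2* in 12 of 18, so that the order at the bottom does not hold in every library. Of the GATA factors, *Gata6* was 56.9-fold above *Gata4* per length on average (range 20.7 to 164). The mean ratio of *Gata6* to *Gata4* was 48.2 ± 22.2 in controls, 44.5 ± 18.5 in heterozygotes and 78.0 ± 50.6 in homozygotes (SD, n = 6), and the ranges overlapped.

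**Figure D3:**
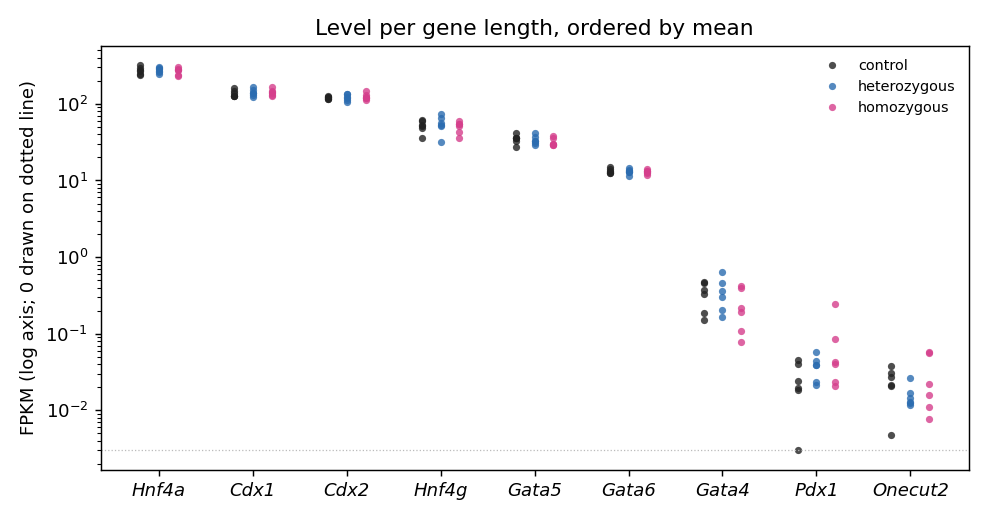
FPKM (vertical axis, logarithmic; a value of 0 is drawn on the dotted line) of the 9 factors ordered by their mean over the 18 libraries, with 1 point per library and the genotypes side by side. The upper 6 factors lie at 11.3 FPKM or more in every library and the lower 3 at 0.645 FPKM or less.

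Ratios between family members, per length, were set side by side for the 3 genotypes. *Cdx2* stood to *Cdx1* as 0.879 ± 0.0844 in controls, 0.860 ± 0.0857 in heterozygotes and 0.888 ± 0.0832 in homozygotes (SD, n = 6). *Hnf4a* stood to *Hnf4g* as 5.38 ± 0.724, 5.35 ± 1.56 and 5.44 ± 0.611 in the same order, and the highest single ratio, 8.29, belonged to a heterozygous library. *Gata5* stood to *Gata6* as 2.59 ± 0.290, 2.57 ± 0.308 and 2.49 ± 0.415. These differences between genotype means are smaller than the SD within a genotype.

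Among mice of one genotype, *Hnf4g* varied most of the factors over the filter, with a within-genotype coefficient of variation of 21.0%. This exceeded that of 93.6% of the 500 genes of nearest mean level, whose median was 10.2%. *Gata5* followed with 13.2%, *Cdx1* with 10.5%, *Hnf4a* with 10.2%, *Cdx2* with 8.33% and *Gata6* with 7.28%, the last being lower than in most genes of its level, since only 23.2% of the 500 nearest were below it. Between the lowest and the highest of the 18 libraries *Hnf4g* differed 2.32-fold and the other 5 factors by 1.34-fold to 1.54-fold.

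The genes most like each factor were found by Pearson's r of log2 CPM over the 18 libraries among all genes over the filter, given here as a description. For *Hnf4a* they were *Cdh17* (r = 0.941), which encodes an intestinal cadherin, *Myo15b* (r = 0.918) and *C530008M17Rik* (r = 0.911). For *Hnf4g* they were *Cnot1* (r = 0.947), a scaffold of the CCR4-NOT deadenylase, *Edem3* (r = 0.942) and *Uprt* (r = 0.934). The paralogs thus had no gene in common among their nearest 3, and their own correlation was 0.650, the highest of the 36 pairs of factors. Only *Gata4* with *Gata6* (r = 0.63) and *Pdx1* with *Cdx2* (r = 0.61) were also above 0.6, and both pairs include a factor of few counts. Homozygous 2 was the highest of all libraries for both *Pdx1* (0.527 CPM) and *Cdx2* (332.5 CPM), and their r without it is not given here. The other factors had looser neighbours. These were *Actn4*, *Vamp7* and *Rab6a* for *Gata5* (r = 0.849, 0.770 and 0.770), *Sgpp1* and *Smad1* for *Gata6* (0.793 and 0.708), *Aldh16a1*, *Eci3* and *Rab25* for *Cdx1* (0.812, 0.811 and 0.795), and *Calm3*, *Lrrfip2* and *Wbp1* for *Cdx2* (0.797, 0.796 and 0.771). All values within a library share its depth and its tissue makeup.

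Each factor was also set against 4 scores per library, the mean log2 CPM of proximal small intestine, distal small intestine, epithelial and smooth muscle genes, giving 36 relations over 18 libraries. None passed at an adjusted permutation p under 0.05. The closest was *Hnf4a* with the epithelial score, with Pearson's r = 0.624 (permutation p = 0.00571, adjusted p = 0.206) and Spearman's rho = 0.581 (permutation p = 0.0130, adjusted p = 0.156). Without the 2 libraries farthest from the median score r was 0.460, and within genotypes it was 0.851 in controls, 0.243 in heterozygotes and 0.597 in homozygotes. *Hnf4g* had r = 0.056 with the epithelial score (permutation p = 0.825, adjusted p = 0.973). With the smooth muscle score r was negative for both nuclear receptors. It was -0.547 for *Hnf4a* (permutation p = 0.0155, adjusted p = 0.271, and -0.438 without the 2 farthest libraries), with rho = -0.631 (permutation p = 0.00642, adjusted p = 0.156). For *Hnf4g* it was -0.541 (permutation p = 0.0226, adjusted p = 0.271, and -0.367 without the 2 farthest), with rho = -0.583 (permutation p = 0.0127, adjusted p = 0.156). Within genotypes these were -0.776, -0.242 and -0.701 for *Hnf4a* and -0.656, -0.574 and -0.392 for *Hnf4g* in controls, heterozygous and homozygous mice. On CPM scaled by TMM factors, 3 of the 36 relations passed: *Hnf4a* with the epithelial score (r = 0.797) and with the proximal score (r = 0.673), and *Cdx2* with the epithelial score (r = 0.651).

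Genes that mark a place along the gut were read beside the factors. Of 12 proximal small intestine genes 10 passed the filter and 0 reached an adjusted p under 0.05 in any comparison, and the same held for all 11 distal small intestine genes. The median log2 fold change for homozygotes against controls was -0.08 over the proximal genes (3 of 10 above 0) and -0.21 over the distal genes (3 of 11 above 0), beside a median near 0 (-0.0048) over all genes tested. For heterozygotes against controls the medians were 0.07 and 0.03. Summed over the list, distal genes ran from 6512 to 9259 CPM in control mice, 6433 to 8438 CPM in heterozygotes and 5512 to 7967 CPM in homozygotes. The 4 lowest of the 18 libraries were homozygous 3 to 6, at 5512, 5795, 5912 and 5520 CPM, and their distal scores (mean log2 CPM) of 7.54 to 7.70 were also under the lowest control, 7.79, whereas homozygous 1 and 2 lay within the control range. The proximal genes summed to 1703 to 2286 CPM in control mice, 1931 to 2497 CPM in heterozygotes and 1709 to 2124 CPM in homozygotes, and these ranges overlapped. *Ada*, adenosine deaminase of the duodenal villus, was at 31.0 to 177 CPM in control mice and 109 to 255 CPM in homozygotes, a log2 fold change of 1.25 (standard error 0.38, edgeR adjusted p = 0.280). *Cybrd1*, a duodenal iron reductase, and *Slc40a1*, the iron exporter, differed by 0.04 and 0.02 on the log2 scale (standard errors 0.13 and 0.16, edgeR adjusted p = 0.970 and 0.987). *Slc10a2*, the ileal bile acid transporter that GATA4 represses in jejunum, was at 387 to 654 CPM in control mice, 373 to 680 CPM in heterozygotes and 355 to 680 CPM in homozygotes (log2 fold change for homozygotes against controls 0.03, standard error 0.21, edgeR adjusted p = 0.987). *Fabp6* had a median of 4066 CPM in control mice and 2717 CPM in homozygotes (-0.56 on the log2 scale, standard error 0.19, edgeR adjusted p = 0.397), and *Fgf15*, the hormone of the ileal bile acid response, had medians of 36.0 and 19.6 CPM (-0.99, standard error 0.51, edgeR adjusted p = 0.644).

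A further 6 proximal genes were kept apart because PPARα, the product of the transgene, also controls them. All 6 had a log2 fold change above 0 in homozygous and in heterozygotes, with medians of 0.83 and 0.43. Of these, *Fabp1*, a fatty acid binding protein, rose in both (log2 fold change 3.88 and 3.40, standard errors 0.23 and 0.22, edgeR adjusted p = 9.0e-09 and 5.9e-08), and *Fabp2* rose in homozygotes (0.94, standard error 0.14, edgeR adjusted p = 0.00116; in heterozygotes 0.61, edgeR adjusted p = 0.0824). *Apoa1*, an apolipoprotein, differed by 0.13 (standard error 0.13, edgeR adjusted p = 0.845).

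At the colonic side, 2 of 4 colon genes passed the filter and 0 reached an adjusted p under 0.05. *Car1*, a carbonic anhydrase of colon, had 0 counts in 10 of 18 libraries and its highest level was 2.23 CPM (104 counts) in 1 homozygous library. *Car4*, another carbonic anhydrase, was at 82.3 to 174 CPM in control mice, 85.5 to 184 CPM in heterozygotes and 120 to 211 CPM in homozygotes, with overlapping ranges and a difference of 0.48 on the log2 scale for homozygotes against controls (standard error 0.21, edgeR adjusted p = 0.587). Stomach and pancreas genes were near 0: 8 stomach genes summed to 1.37 CPM at most and 10 pancreas genes to 1.02 CPM at most in any library, with *Ptf1a*, a pancreatic factor, at 0 counts in all 18.

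Posterior *Hox* genes are expressed by position along the gut, also in the wall outside the epithelium. Of 14 such genes 3 passed the filter, *Hoxb9*, *Hoxc9* and *Hoxd8*, which are named after their values were seen. Their log2 fold change for homozygotes against controls was 0.24, 0.89 and 0.51 (standard errors 0.14, 0.24 and 0.20, edgeR adjusted p = 0.687, 0.166 and 0.530), so that 0 of 3 passed. *Hoxc9* was at 1.79 to 5.17 CPM in control mice (median 3.33), 1.94 to 5.47 CPM in heterozygotes (median 2.59) and 4.96 to 6.82 CPM in homozygotes (median 6.18), and the ranges overlapped slightly. DESeq2's Wald test gave it the same size, 0.90, with a DESeq2 adjusted p = 0.0336. *Hoxa9* was lower, at 0 to 0.591 CPM in control mice and 0.163 to 1.66 CPM in homozygotes (1.93 on the log2 scale in the fit over all genes, standard error 0.70, edgeR adjusted p = 0.540). *Hoxa10* had 0 counts in 8 of 18 libraries and *Hoxa11* in 17 of 18. Summed over the list, *Hox* levels ran from 44.6 to 66.6 CPM in control mice, 37.3 to 73.1 CPM in heterozygotes and 63.5 to 75.9 CPM in homozygotes. All 10 smooth muscle genes likewise had a log2 fold change above 0 for homozygotes against controls (median 0.57), with 0 of 10 at an adjusted p under 0.05. This median was 0.36 without control 6, which had the lowest smooth muscle sum, and 0.40 without homozygous 3, which had the highest. With the smooth muscle score as a covariate, *Hoxc9* differed by 0.69, *Hoxd8* by 0.38, *Hoxb9* by 0.29 and *Hoxa9* by 1.81 (edgeR adjusted p from 0.264 to 0.783). Without the 2 libraries lowest in smooth muscle genes the values were 0.79, 0.41, 0.25 and 1.68 in the same order (edgeR adjusted p from 0.262 to 0.806). Enteric neuron and glia genes summed to 19.8 to 62.3 CPM in control mice and 53.1 to 103 CPM in homozygotes, and 1 of 7 over the filter rose, the receptor gene *Ret* (0.90 on the log2 scale, standard error 0.12, edgeR adjusted p = 0.000465). The part of nerve in the *Hox* values was not tested.

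**Figure D4:**
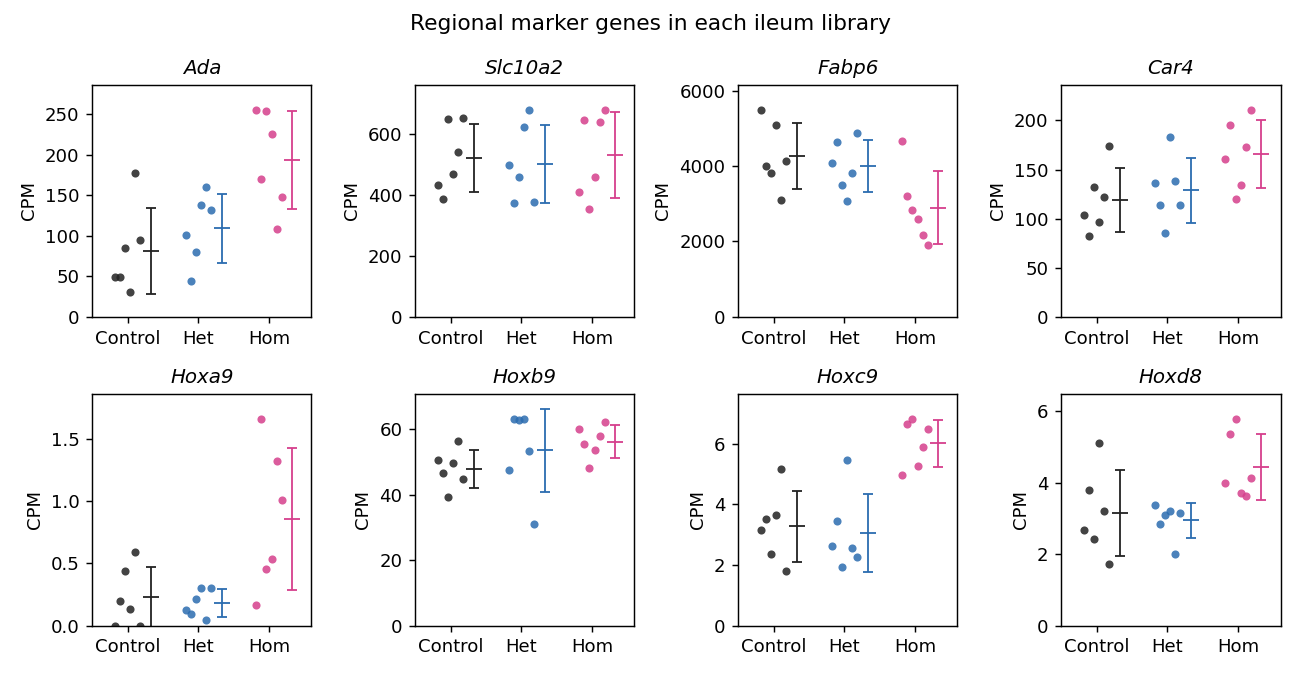
CPM (vertical axis, linear from 0) of 8 regional genes in the 6 control, 6 heterozygous (Het) and 6 homozygous (Hom) libraries; points are libraries, and the bars are the group mean and SD, cut at 0. *Slc10a2* and *Car4* overlap across genotypes, while *Hoxc9* is at 4.96 to 6.82 CPM in homozygotes against 1.79 to 5.17 CPM in control mice.

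Partners and other factors of the same network were counted next. Of 6 GATA partners and other GATA genes 3 passed the filter and 0 reached an adjusted p under 0.05. *Gata2*, a factor of blood and endothelial cells, was at 2.39 to 4.98 CPM over all libraries, and *Gata3*, known from T cells, at 0.562 to 3.12 CPM. *Gata1*, the erythroid factor, did not exceed 6 counts. Of 19 other gut endoderm transcription factors 17 passed the filter and 0 reached an adjusted p under 0.05 in any comparison, with a median log2 fold change of 0.04 for homozygous and 0.08 for heterozygotes against controls. The forkhead factors *Foxa1*, *Foxa2* and *Foxa3*, which open chromatin in endoderm, differed by 0.09, -0.17 and -0.06 in homozygotes (standard errors 0.11, 0.12 and 0.08, edgeR adjusted p from 0.752 to 0.918). *Creb3l3*, a factor of lipid metabolism in liver and intestine that is named after its values were seen, was at 72.4 to 157 CPM in control mice, 170 to 306 CPM in heterozygotes and 159 to 241 CPM in homozygotes, so that every IEC-*Ppara* library lay above every control. Its log2 fold change was 0.68 for homozygotes (standard error 0.19, edgeR adjusted p = 0.218) and 0.88 for heterozygotes against controls (standard error 0.19, edgeR adjusted p = 0.0692). DESeq2's Wald test gave the same sizes, 0.68 and 0.89, with DESeq2 adjusted p = 0.0319 and 0.000749. In heterozygotes the edgeR adjusted p was 0.0459 without control 1, 0.0413 without heterozygous 1 and 0.0382 without heterozygous 2, and it ranged up to 0.210 with another library left out.

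Known targets were counted for each family. Of 8 CDX2 targets 7 passed the filter and 0 reached an adjusted p under 0.05, with a median log2 fold change of -0.03 for homozygotes against controls. Among them the cadherin gene *Cdh17* differed by -0.07, sucrase-isomaltase *Sis* by -0.36 and the guanylin receptor gene *Gucy2c* by 0.07 (standard errors 0.14, 0.25 and 0.09). All 9 HNF4 targets passed the filter and 1 rose in homozygotes, *Fabp2*, which is also in the list of PPARα targets above. The median over these 9 was 0.11, with 0.13 for *Apob* and 0.11 for *Mttp*, both needed for chylomicron assembly (standard errors 0.22 and 0.14). For 6 genes that GATA4 controls in small intestine, 4 passed the filter and 1 rose in both IEC-*Ppara* groups, *Fabp1*, again a gene of the PPARα list. *Lct*, the lactase gene that GATA4 activates, stayed under the filter at 0.456 to 2.07 CPM in control mice and 0.268 to 0.728 CPM in homozygotes (-0.98 on the log2 scale in the fit over all genes, standard error 0.49, edgeR adjusted p = 0.540).

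Markers of cell types were read for what else the pieces held. All 8 epithelial genes passed the filter, with summed levels of 13117 to 16928 CPM in control mice, 14271 to 17123 CPM in heterozygotes and 12735 to 16918 CPM in homozygotes, and 0 reached an adjusted p under 0.05. *Epcam*, *Cdh1* and *Vil1*, an adhesion molecule, E-cadherin and villin, differed by 0.01, -0.04 and -0.11 on the log2 scale for homozygotes against controls (standard errors 0.09, 0.08 and 0.12). In the same comparison the median was 0.35 over 8 fibroblast genes, -3.03 over 9 B cell genes, -0.81 over 5 T cell genes, -0.00054 over 7 macrophage and dendritic cell genes, 0.02 over 6 endothelial genes and -0.09 over 4 enteroendocrine genes, and 0 genes of these lists reached an adjusted p under 0.05. The B cell median rests on controls 2 and 3, since the other 4 controls summed to 17.0 to 21.7 CPM, beside 11.8 to 19.5 CPM in homozygous 2 to 6. Without control 2 the median was -1.67 and without control 3 it was -1.72, each over the 3 B cell genes then left by the filter. The summed T cell genes were also highest in controls 2 and 3, at 84.1 and 71.2 CPM, and 1 of 5 passed the threshold without control 4. The fibroblast median was 0.22 without control 6, 0.17 without homozygous 3 and 0.57 without control 4. Leaving out the 4 libraries highest in B cell genes, or the 2 lowest in smooth muscle genes, also left 0 of the 6 factors over the filter past the threshold in every comparison. These refits hold fewer libraries, and the share of all genes past the threshold in them is not given here.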

How the data were processed

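Whole-thickness ileum of 18 mice was analysed, 6 per genotype as given in the sample labels, with each mouse as a replicate. The authors selected poly-A RNA, sequenced it in pairs, aligned the reads with STAR to GRCm38 and counted them per gene with featureCounts on Ensembl release 101 annotation. The deposited counts are not normalized. The CPM values deposited by the authors divide each count by the library's total, and the deposited FPKM values divide the CPM by exon length in kilobases, both checked against the counts to within 1e-06. A deposited table of moderated log2 CPM was not used. Positions are given as in the count files.

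Genes were tested with edgeR 4.0.16 (TMM, glmQLFit, glmQLFTest, no covariate) in R 4.3.3 over the protein-coding genes that passed the CPM rule of the study's methods, whose number differs here from the one given there. DESeq2 1.42.0 was an alternative, as were other scalings, filters, sex, the replicate number as a block, and leaving out libraries. The edgeR test returns no standard errors. Each edgeR standard error given here is the absolute log2 fold change divided by the square root of its F statistic. The 95% intervals of fold changes extend by that error times a t quantile to either side, which is an approximation. The pipeline was tested on simulated data. Relations were computed on log2 CPM (prior count 2) with 100000 two-sided permutations, adjusted over the 36 relations. Intervals for low counts are exact binomial (95%) and cover counting error only.

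The genes named are the 9 factors, at most the 3 written first in each gene list reported together with any of its members at an adjusted p under 0.05, for each factor over the filter the 3 genes of highest Pearson r, and *Ppara* as a check of the labels. *Hoxb9*, *Hoxc9*, *Hoxd8*, *Creb3l3* and the antisense genes stand outside this rule. The members and lists were chosen with earlier results of these data known. No 2 libraries of 1 genotype agreed within sampling noise. Some genes that this rule names are left out here.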

Additional observations from a re-analysis of the deposited data

Results flagged for a closer look

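Each of the 9 factors was checked for a library far from the other 5 of its genotype by Dixon's test at its 95% critical value, and 2 of the 27 combinations of gene and genotype exceeded it. Chance alone gives about 1 in 20. *Pdx1* in homozygous 2 was at 0.5269 CPM, on 26 counts, whereas the other 5 homozygous libraries had 2 to 8 counts. *Onecut2* in heterozygous 2 was at 0.4342 CPM, on 19 counts, whereas the other 5 heterozygous libraries had 8 to 13. Homozygous 2 was also the highest of all libraries for *Onecut2*, and heterozygous 2 was 1 of the 4 libraries highest in B cell genes. Both genes lie under the expression filter, and the cause of these values was not tested.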

How the results depend on the processing

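Over the alternatives run for the 9 factors (729 fold changes), 0 passed an adjusted p under 0.05 and the lowest adjusted p was 0.515. In 53 of them the sign differed from that of the main fit, in each case for a value of at most 0.24 on the log2 scale in the main fit, and the cause was not tested. *Gata6* in heterozygotes against controls was 0.0011 with DESeq2's Wald test, 0.00098 with DESeq2 size factors in edgeR and 0.0025 over all genes, where *Cdx2* in homozygotes against heterozygotes was -0.0046. With sex as a covariate, *Gata5* in heterozygotes against controls was 0.028. The following 3 settings were chosen after seeing the data. Without the 4 libraries highest in B cell genes, *Cdx1* was -0.069 and *Hnf4g* 0.081 in homozygotes against controls, *Gata6* 0.020 and *Cdx1* -0.026 in heterozygotes against controls, and *Cdx2* -0.017 between the IEC-*Ppara* groups. Without the 2 lowest in smooth muscle genes, *Gata6* was 0.0089, *Hnf4a* 0.049 and *Hnf4g* 0.033 in homozygotes, and *Gata5* 0.10 and *Gata6* 0.061 in heterozygotes against controls. With the smooth muscle score as a covariate, *Gata6* was 0.0055, *Hnf4a* 0.070 and *Hnf4g* 0.13 in homozygotes against controls, and *Gata6* 0.012, *Cdx1* 0.052, *Hnf4a* 0.033 and *Hnf4g* 0.048 in homozygotes against heterozygotes.

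With 1 library left out at a time, the range for homozygotes against controls was -0.087 to 0.0089 for *Gata6*, -0.0093 to 0.096 for *Cdx1*, -0.078 to 0.049 for *Hnf4a*, -0.15 to 0.033 for *Hnf4g*, -0.061 to 0.13 for *Slc10a2* and -0.10 to 0.43 for *Onecut2*. For heterozygotes against controls it was -0.092 to 0.072 for *Gata5*, -0.032 to 0.066 for *Gata6*, -0.0043 to 0.12 for *Hnf4a* and -0.15 to 0.31 for *Gata4*, and for homozygotes against heterozygotes -0.082 to 0.0044 for *Cdx1* and -0.052 to 0.063 for *Cdx2*.

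Of the relations with scores, 3 passed on TMM-scaled log2 CPM and 0 on plain log2 CPM. TMM scaling turned the sign of r for *Hnf4g* with the proximal (0.206) and distal (0.156) scores, *Pdx1* with the distal score (0.051), *Onecut2* with the smooth muscle score (-0.0157) and *Gata6* with the epithelial score (0.406), and a prior count of 0.5 turned *Onecut2* with the smooth muscle score (-0.0054).

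GEO's labels number the mice 1 to 6 in each genotype and do not say what the numbers stand for. Of the 18 pairs of equal number, 9 had a correlation of deviations over 0.1 (range -0.606 to 0.642). Only 2 of 18 libraries correlated best with their own number, so that no pairing was seen. The deviations were taken over all genes over the filter, and the libraries also differed in muscle and lymphoid genes. A weaker pairing could therefore go unseen. With the replicate number as a block, 0 of the factors over the filter were called in any comparison, and the genes called among all tested went from 52 to 49 for homozygotes and from 37 to 22 for heterozygotes against controls. The fit of only the 12 libraries compared gave 57 and 23, and DESeq2 gave 136 and 80. Counts were fewest for *Pdx1*, with 26 at most, so that its relative counting error is the largest of the 9.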
